A study of Mus musculus with 9 samples.

Results

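The matrix metalloproteinases and their inhibitors described here are 10 genes chosen by name, the proteinases Mmp2, Mmp3, Mmp9, Mmp12, Mmp13 and Mmp14 and the inhibitors Timp1, Timp2, Timp3 and Timp4, out of 54532 genes in the count table. All 10 were matched by their Ensembl identifier and all 10 had enough counts to be tested in every comparison. RNA was sequenced from tibialis anterior muscle of C57/BL6J mice after injury with barium chloride (BaCl2), which destroys muscle fibers and starts regeneration. Young mice were 3 to 4 months old and old mice 24 to 26 months old. All 9 muscles were injured and then received 3 injections, of PBS in the young PBS group and the old PBS group, and of recombinant meteorin-like protein (rMETRNL) in the old rMETRNL group. Each group held 3 libraries, numbered 1 to 3 in young PBS and in old rMETRNL and 2 to 4 in old PBS. The labels describe a digested cell suspension and day 4 after injury, whereas the account of the bulk sequencing gives whole muscle at day 8, so the time after injury is not settled here. The labels do not say whether the libraries of a group came from separate mice, so p-values measure only the spread between these libraries, which may be technical. No young group received rMETRNL, so age and treatment cannot be told apart in the comparison of old rMETRNL with young PBS.

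Matrix metalloproteinases (MMPs) are zinc-dependent enzymes that cut collagens, laminins and other proteins outside the cell. They are made as inactive precursors, activated by cleavage, and held in check by tissue inhibitors of metalloproteinases (TIMPs), which bind the active site. In injured muscle they take part in clearing damaged matrix and in the migration of muscle precursor and immune cells, and the balance between enzyme and inhibitor bears on how much matrix is kept.

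The inhibitors Timp1 and Timp2 had their 3 lowest libraries in old PBS, which none of the 6 enzyme genes had, whereas Timp4 averaged 22.2 ± 16.5 CPM in old PBS against 8.70 ± 1.61 CPM in young PBS and 7.21 ± 0.617 CPM in old rMETRNL (SD, n = 3 each; CPM are counts scaled to library size). Among the enzymes, Mmp12, macrophage elastase, had the largest fold difference, at 3.003 ± 2.21 CPM in old PBS against 14.3 ± 9.73 CPM in young PBS and 11.6 ± 10.6 CPM in old rMETRNL, with overlapping groups. With all libraries and a filter on low counts, no member passed an adjusted p under 0.05 by edgeR in any of the 3 comparisons. Timp1 and Timp4 passed it once a single library, old PBS 3, was left out. In those fits 2.52% of all genes passed for old PBS against young PBS and 9.76% for old rMETRNL against old PBS. Without the filter edgeR called Mmp12 and Timp4 in the first comparison (1.23% of genes) and Mmp12, Timp1 and Timp4 in the second (2.55%). For old rMETRNL against young PBS it then called Mmp3 and Mmp9 (0.467%). Both had overlapping groups in that comparison and an adjusted p of 0.9996 with the filter (edgeR). With 1 library left out, the log2 fold change of Mmp9 ran from -1.43 to 0.13 and that of Mmp3 from 0.29 to 0.99.

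The libraries held 16238700 to 22522560 counts. Levels are given as CPM after TMM normalization, or, where genes are compared with one another, per kilobase of exon as well (FPKM). Old PBS 3 stood apart from the other 8 libraries in its muscle genes. Its summed level of 5 genes of new muscle (Pax7, Myod1, Myog, Myh3 and Myh8) was 3185 CPM. Old PBS 4 stood apart in the opposite direction in these genes, at 229 CPM, and the rest had 699 to 1277 CPM. The summed level of 5 muscle fiber genes was 63371 CPM in old PBS 3, against 82345 to 106078 CPM elsewhere. Differences of members against old PBS are therefore given with and without old PBS 3, as are the list genes named below. Old PBS 4 was left out only as 1 of the libraries left out in turn. All 3 old PBS libraries also had more counts on brain and liver genes: the 5 brain genes summed to 71.7 to 224 CPM there and to 7.47 to 13.04 CPM in the other 6 libraries, and the 4 liver genes to 4.14 to 74.9 CPM against 0.113 to 0.483 CPM. In bulk RNA, fewer cells of a type and less RNA per cell cannot be told apart. Counts called in the gene lists below stand beside shares over all genes. For old PBS against young PBS and old rMETRNL against old PBS, edgeR called 0.0643% and 0.108%, and 2.52% and 9.76% without old PBS 3. DESeq2 called 1.42% and 1.78%, and 5.91% and 8.07% had an unadjusted p under 0.05 (edgeR).

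Per length, the family was dominated by Mmp2, Timp2 and Mmp14. Mmp2, gelatinase A, averaged 105 FPKM over the 9 libraries, and Timp2, the inhibitor that also takes part in activating pro-MMP2 at the cell surface, averaged 103 FPKM. Their ranges overlapped, at 70.2 to 149 FPKM for Mmp2 and 81.8 to 124 FPKM for Timp2. Mmp14, the membrane-anchored MMP that performs that activation, averaged 41.1 FPKM with a range of 20.7 to 58.1 FPKM, below every value of the first pair. Mmp3 (12.3 FPKM), Timp1 (11.7 FPKM), Timp3 (7.33 FPKM) and Mmp13 (5.14 FPKM) followed with overlapping ranges. Timp4 (2.16 FPKM), Mmp12 (1.33 FPKM) and Mmp9 (0.956 FPKM) were lowest, and their ranges overlapped too. Neighbours in this order overlapped throughout, except Timp2 and Mmp14.

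Mmp2 and Mmp14 together made up 80.7% to 92.1% of the summed FPKM of the 6 MMP genes in each library. Timp2 made up 81.1% to 85.0% of the summed FPKM of the 4 inhibitors. The summed MMP level was 181 ± 42.7 FPKM in young PBS, 134 ± 29.5 FPKM in old PBS and 182 ± 35.6 FPKM in old rMETRNL (SD, n = 3 each). The groups overlapped in this sum through old PBS 3, at 168 FPKM, and the mean of the other 2 old PBS libraries was 117 FPKM. The summed inhibitor level was 130 ± 7.05 FPKM in young PBS, 106 ± 6.19 FPKM in old PBS and 136 ± 9.77 FPKM in old rMETRNL (SD, n = 3 each). Here the 3 old PBS libraries, at 99.6, 107 and 112 FPKM, lay below all 6 others, which ranged from 124 to 147 FPKM. The mean inhibitor sum of old PBS was 106 FPKM when old PBS 3 was left out. The ratio of the MMP sum to the inhibitor sum was 1.39 ± 0.249 in young PBS, 1.27 ± 0.282 in old PBS and 1.33 ± 0.167 in old rMETRNL (SD, n = 3 each), differences smaller than the spread within a group. It was 1.12 in old PBS without old PBS 3. The sums were not tested.

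**Figure D1:**
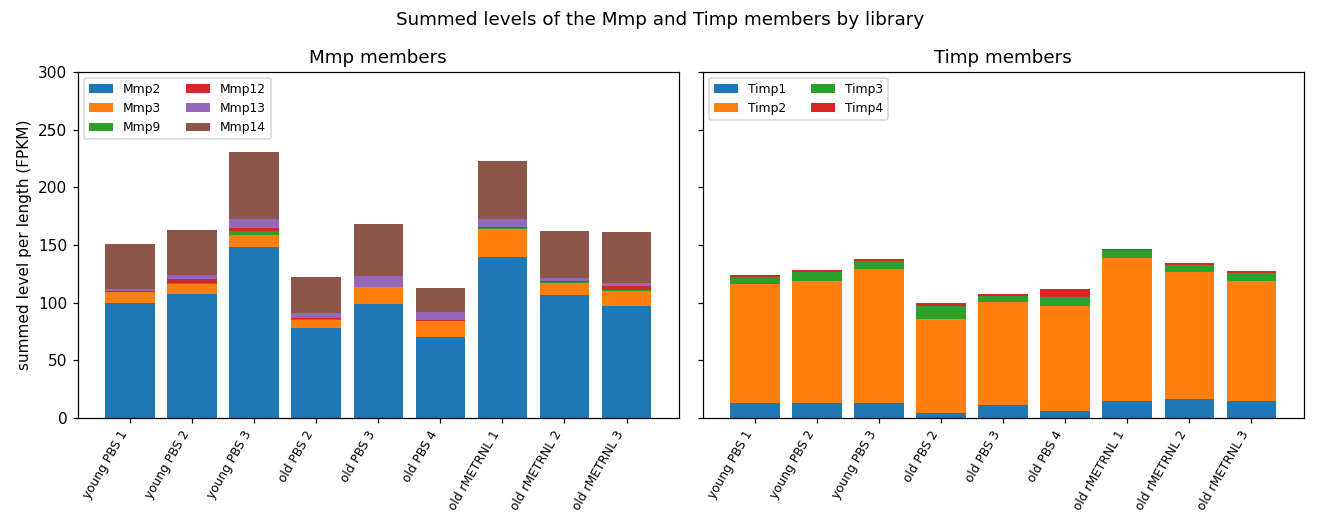
Stacked bars give the summed level per length (FPKM, from 0) of the 6 MMP genes (left) and the 4 inhibitor genes (right) in each of the 9 libraries. Mmp2 with Mmp14 and Timp2 fill most of each bar, and the inhibitor sums of old PBS (99.6 to 112 FPKM) lie below those of the other groups (124 to 147 FPKM).

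Spread over the 9 libraries differed widely between members. The highest library exceeded the lowest 17.4-fold for Mmp12, 8.11-fold for Mmp9, 5.96-fold for Timp4 and 5.38-fold for Mmp13, and 1.51-fold for Timp2. The CPM values follow with the gelatinases first. In each sentence the libraries are in the order of their numbers.

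Mmp2 (ENSMUSG00000031740, chr8:92827291-92853420, GRCm38) stood at 335, 362 and 501 CPM in young PBS, 263, 334 and 237 CPM in old PBS and 471, 360 and 326 CPM in old rMETRNL. The old PBS values lay below all young PBS values, but the highest of them, old PBS 3, was nearly level with young PBS 1, and it overlapped with old rMETRNL. The log2 fold change was -0.52 ± 0.24 (SE) for old PBS against young PBS and 0.46 ± 0.23 for old rMETRNL against old PBS, with adjusted p of 0.873 and 0.661 (edgeR). With old PBS 3 left out these were -0.67 and 0.61, with adjusted p of 0.140 and 0.0903 (edgeR).

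Mmp9 (ENSMUSG00000017737, chr2:164940780-164955850), gelatinase B, which neutrophils and macrophages release, was read from 25, 62 and 195 counts in young PBS, 33, 31 and 46 in old PBS and 47, 56 and 53 in old rMETRNL. In CPM these were 1.45, 3.44 and 11.03, then 2.19, 1.36 and 2.88, then 2.52, 3.16 and 2.41. Young PBS 3 alone was high, and the 3 groups overlapped. The log2 fold change of old PBS against young PBS was -1.31 ± 0.67 (SE) with an adjusted p of 0.940 (edgeR), and it was -0.19 without young PBS 3 and -1.06 without old PBS 3. For old rMETRNL against old PBS it was 0.33 ± 0.36 (SE) with an adjusted p of 0.830 (edgeR), and 0.070 without old PBS 3. For old rMETRNL against young PBS it was -0.98 ± 0.55 (SE) with an adjusted p of 0.9996 (edgeR). That value ran from -1.43 to 0.13 with 1 library left out, so its sign turned. Of the 7 neutrophil genes, 2 were at or under the floor of 3 counts in every library, among them Ly6g, a defining marker, at 0, and their sum was 7.94 to 11.8 CPM in young PBS, 9.81 to 23.99 CPM in old PBS and 9.47 to 12.7 CPM in old rMETRNL. The neutrophil sum was 11.8 CPM in young PBS 3. Csf3r made up 11.03 CPM of that sum in young PBS 3, but 6.08 of 15.2 CPM in old PBS 4. S100a8 and S100a9, which encode calprotectin, had their highest means in old PBS. S100a8 averaged 0.187 CPM in young PBS, 2.15 CPM in old PBS and 0.376 CPM in old rMETRNL, without overlap of old PBS and the others, and DESeq2 called it in both comparisons with old PBS (log2 fold change by edgeR 3.47 and -2.54; adjusted p 0.000492 and 0.0100 by DESeq2 and 0.0948 and 0.174 by edgeR). Without old PBS 3 edgeR called it too (adjusted p of 0.0436 and 0.0375). Csf3r had the opposite signs in those fits, with log2 fold changes of -0.41 and 0.43 (adjusted p of 0.398 and 0.240, edgeR). S100a9 averaged 3.05 CPM in old PBS and 0.765 CPM in old rMETRNL, with overlap. The mean of Mmp9 was lowest in old PBS, and the part of neutrophils in its level was not tested.

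Mmp3, Mmp12 and Mmp13 lie close together on chromosome 9 and are the only members of which a promoter window held the AP-1 motif TGANTCA, a binding sequence of Fos and Jun proteins known for its place in the promoters of inducible MMP genes. The windows are the 250 bases before the transcription start in RefSeq (GRCm38.p6), searched on both strands, which for this motif are the same letters read either way. Windows were found for 8 of the 10 members, with Mmp2 and Mmp9 not among them. Of 32851 promoter windows of all genes, 6.75% held the motif. The 3 windows are shown because they share it, with the 7 matching bases in capitals. The match ended 40 bases before the start in Mmp3, 38 bases before the second of the Mmp12 starts and 29 bases before the start of Mmp13.
Mmp3, plus strand, chr9:7445572-7445821: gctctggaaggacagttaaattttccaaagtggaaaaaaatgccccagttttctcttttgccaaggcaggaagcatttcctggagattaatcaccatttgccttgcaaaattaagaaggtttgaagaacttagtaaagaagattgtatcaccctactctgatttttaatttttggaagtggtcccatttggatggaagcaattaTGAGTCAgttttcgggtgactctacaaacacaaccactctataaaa
Mmp12, second start, plus strand, chr9:7347124-7347373: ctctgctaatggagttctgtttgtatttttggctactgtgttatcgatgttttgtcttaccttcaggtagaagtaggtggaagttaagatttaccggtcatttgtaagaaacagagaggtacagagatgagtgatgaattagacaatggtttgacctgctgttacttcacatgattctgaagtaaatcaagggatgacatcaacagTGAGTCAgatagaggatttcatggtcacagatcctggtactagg
Mmp13, plus strand, chr9:7272264-7272513: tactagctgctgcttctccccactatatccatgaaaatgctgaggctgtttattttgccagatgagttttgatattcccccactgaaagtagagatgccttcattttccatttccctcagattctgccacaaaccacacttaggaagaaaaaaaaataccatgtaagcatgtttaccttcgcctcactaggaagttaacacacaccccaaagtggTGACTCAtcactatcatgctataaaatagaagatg
The other Mmp12 window and the windows of Mmp14 and of Timp1 to Timp4 held no match. A second motif, TTCNNNGAA, which STAT proteins bind, was found in 0 member windows and in 7.02% of all windows. These matches describe the letters only, and no binding was measured.

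Mmp3 (ENSMUSG00000043613, chr9:7445822-7455975), stromelysin 1, which cuts many matrix proteins and activates other MMPs, stood at 17.0, 16.0 and 18.4 CPM in young PBS, 12.4, 25.5 and 24.2 CPM in old PBS and 43.9, 17.5 and 24.4 CPM in old rMETRNL. Young PBS was tight, both old groups spread more widely and overlapped with it, and old rMETRNL 1 was the highest library. Against young PBS, old rMETRNL had a log2 fold change of 0.74 ± 0.26 (SE) with an unadjusted p of 0.0167 and an adjusted p of 0.9996 (edgeR). It was 0.29 without old rMETRNL 1. Between old PBS and young PBS the log2 fold change was 0.28 ± 0.26, and between old rMETRNL and old PBS 0.45 ± 0.36, with adjusted p of 0.994 and 0.772 (edgeR). They were 0.10 and 0.63 without old PBS 3. The first ran from 0.10 to 0.54 with 1 library left out, highest without old PBS 2, and the second from 0.0015, without old rMETRNL 1, to 0.71, without old rMETRNL 2.

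Mmp12 (ENSMUSG00000049723, chr9:7344381-7369499), macrophage elastase, which macrophages secrete and which cuts elastin, was the most variable member. It was read from 55, 382 and 328 counts in young PBS, 83, 30 and 35 counts in old PBS and 38, 175 and 504 counts in old rMETRNL. In CPM these were 3.19, 21.2 and 18.5, then 5.50, 1.32 and 2.19, then 2.04, 9.89 and 22.9. Young PBS and old rMETRNL each held 1 low library, young PBS 1 and old rMETRNL 1, and both lay within the range of old PBS. Its log2 fold change was -2.26 ± 0.72 (SE) for old PBS against young PBS and 1.96 ± 0.79 for old rMETRNL against old PBS. Unadjusted p was 0.0132 and 0.0350, and adjusted p 0.583 and 0.564 (edgeR). The range with each library left out was -3.04 to -1.86 for the first and 0.98 to 2.74 for the second, so the direction was the same each time. It was 0.98 without old rMETRNL 3. On the libraries other than old PBS 3 the values were -1.89 and 1.58, with adjusted p of 0.197 and 0.212 (edgeR).

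In both comparisons with old PBS the median of the macrophage genes had the sign of Mmp12 and a smaller size. The 7 macrophage genes (Adgre1, Csf1r, Cd68, Itgam, C1qa, Lyz2 and Mrc1) summed to 1536, 1607 and 1802 CPM in young PBS, 1112, 1570 and 1185 CPM in old PBS and 1729, 1957 and 1685 CPM in old rMETRNL. All 7 were detected in every comparison, with a median log2 fold change of -0.37 for old PBS against young PBS and 0.49 for old rMETRNL against old PBS, and 0 of 7 passed the adjusted threshold in either (edgeR; 2 and 3 of 7 at an unadjusted p under 0.05; 0 by DESeq2). With old PBS 3 left out the medians were -0.62 and 0.73, and edgeR called 1 of 7, lower, and 3 of 7, higher. Between old rMETRNL and young PBS the signs differed, with a macrophage median of 0.12 and Mmp12 at -0.29 ± 0.69 (SE). Young PBS 1 and old rMETRNL 1, the libraries low in Mmp12 within their groups, had macrophage sums of 1536 and 1729 CPM. The part of macrophage number in the Mmp12 values was not tested.

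Mmp13 (ENSMUSG00000050578, chr9:7272514-7283331), the main interstitial collagenase of rodents, ran the other way in its means. It stood at 4.46, 10.2 and 20.3 CPM in young PBS, 11.9, 23.99 and 19.1 CPM in old PBS and 19.6, 6.05 and 8.06 CPM in old rMETRNL. All 3 groups overlapped. Between groups, the log2 fold change was 0.66 ± 0.48 (SE) for old PBS against young PBS and -0.72 ± 0.43 for old rMETRNL against old PBS, with adjusted p of 0.994 and 0.706 (edgeR). These were 0.42 and -0.48 without old PBS 3. With 1 library left out they ran from 0.27, without young PBS 1, to 1.33, without young PBS 3, and from -1.39, without old rMETRNL 1, to -0.42, without old rMETRNL 2. Among the 3 genes whose window held the AP-1 motif, the means of Mmp3 and Mmp13 were higher in old PBS than those of young PBS and the mean of Mmp12 was lower.

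Mmp14 (ENSMUSG00000000957, chr14:54431612-54445364) stood at 234, 234 and 346 CPM in young PBS, 188, 269 and 124 CPM in old PBS and 302, 244 and 261 CPM in old rMETRNL. Old PBS 2 and old PBS 4 were the lowest of the 9 libraries, and old PBS 3 lay inside the ranges of both other groups. Its log2 fold change was -0.48 ± 0.30 (SE) for old PBS against young PBS and 0.46 ± 0.28 for old rMETRNL against old PBS, with adjusted p of 0.994 and 0.708 (edgeR). Leaving out old PBS 3 gave -0.79 and 0.77, with adjusted p of 0.143 and 0.0521 (edgeR).

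Fibro-adipogenic cells, the connective tissue progenitors of muscle, are a known source of Mmp2, Mmp14 and the inhibitors. Their 6 marker genes (Pdgfra, Ly6a, Dcn, Lum, Cd34 and Dpt) summed to 1399 to 1724 CPM in young PBS, 1242 to 1677 CPM in old PBS and 1559 to 2161 CPM in old rMETRNL, overlapping between groups. The median log2 fold change of the 6 was -0.28 for old PBS against young PBS and 0.49 for old rMETRNL against old PBS, and edgeR called 0 of 6 in both (1 and 4 of 6 at an unadjusted p under 0.05; 0 and 1 by DESeq2). Leaving out old PBS 3 gave medians of -0.29 and 0.50, and edgeR then called 0 and 1 of 6. The part of the number of these cells in the levels of Mmp2 and Mmp14 was not tested.

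**Figure D2:**
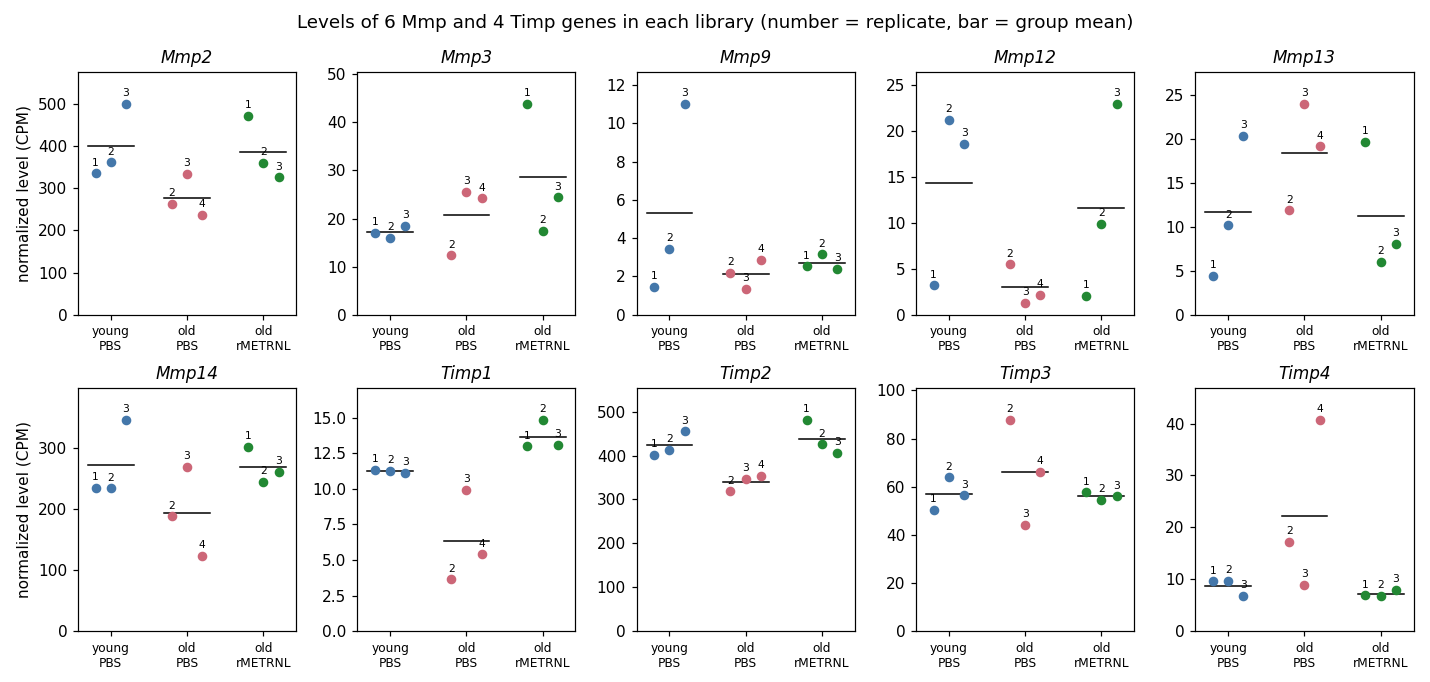
Points give the normalized level (CPM, linear axis from 0) of each member in each library, labelled with the replicate number, and bars the mean of 3 libraries. Old PBS lies lowest for Timp1 and Timp2, old PBS 4 stands alone at 40.7 CPM for Timp4, and Mmp12 has a low and a high library in both young PBS and old rMETRNL.

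Among the inhibitors, Timp1 (ENSMUSG00000001131, chrX:20870166-20874735), the secreted inhibitor most often induced by injury and inflammation, was the most uniform within young PBS. It stood at 11.4, 11.3 and 11.1 CPM in young PBS, from 196 to 203 counts, at 3.64, 9.95 and 5.39 CPM in old PBS, from 55 to 227 counts, and at 12.99, 14.9 and 13.1 CPM in old rMETRNL, from 242 to 288 counts. The 3 groups did not overlap, with old PBS lowest, young PBS between and old rMETRNL highest. Its log2 fold change was -0.81 ± 0.33 (SE) for old PBS against young PBS and 1.08 ± 0.33 for old rMETRNL against old PBS. Unadjusted p was 0.0387 and 0.00938, and adjusted p 0.788 and 0.391 (edgeR), with 0.496 and 0.0833 by DESeq2. Without old PBS 3, the old PBS library nearest to the others, Timp1 was called in both comparisons, lower in old PBS (log2 fold change -1.30 against young PBS, adjusted p = 0.0330, edgeR) and higher with rMETRNL (1.58 against old PBS, adjusted p = 0.00569, edgeR). Between old rMETRNL and young PBS the log2 fold change was 0.28 ± 0.14 (SE), with an adjusted p of 0.9996 (edgeR).

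Timp2 (ENSMUSG00000017466, chr11:118301069-118355740) stood at 402, 413 and 455 CPM in young PBS, 319, 347 and 354 CPM in old PBS and 482, 426 and 406 CPM in old rMETRNL. All 3 old PBS libraries lay below the other 6, old PBS 3 included. The log2 fold change was small, at -0.31 ± 0.18 (SE) for old PBS against young PBS and 0.35 ± 0.19 for old rMETRNL against old PBS, with adjusted p of 0.979 and 0.677 (edgeR). With each library left out it ran from -0.35 to -0.26 and from 0.28 to 0.40, and without old PBS 3 it was -0.32 and 0.36.

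Timp3 (ENSMUSG00000020044, chr10:86300372-86349506), the inhibitor that binds to the matrix itself and also inhibits ADAM proteases, stood at 50.5, 63.9 and 56.4 CPM in young PBS, 87.8, 44.2 and 66.2 CPM in old PBS and 57.7, 54.5 and 56.0 CPM in old rMETRNL. Old PBS held both the highest and the lowest of the 9 libraries. Its log2 fold change was 0.23 ± 0.25 (SE) for old PBS against young PBS and -0.25 ± 0.24 for old rMETRNL against old PBS, with adjusted p of 0.994 and 0.802 (edgeR), and both changed sign without old PBS 2, to -0.041 and 0.016. They were 0.45 and -0.48 without old PBS 3, with adjusted p of 0.211 and 0.0989 (edgeR).

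Timp4 (ENSMUSG00000030317, chr6:115241892-115252205), an inhibitor made in a narrower set of tissues that includes heart, skeletal muscle, brain and fat, was the member whose mean was highest in old PBS relative to the other groups. It stood at 9.56, 9.71 and 6.84 CPM in young PBS, 17.2, 8.86 and 40.7 CPM in old PBS and 6.87, 6.84 and 7.92 CPM in old rMETRNL. Its counts were 121 to 175 in young PBS, 202 to 650 in old PBS and 121 to 174 in old rMETRNL. Old PBS 4 was highest by far, old PBS 2 came next, and old PBS 3 lay within the range of young PBS but above all of old rMETRNL. The log2 fold change was 1.36 ± 0.48 (SE) for old PBS against young PBS and -1.64 ± 0.47 for old rMETRNL against old PBS. Unadjusted p was 0.0219 and 0.00724, and adjusted p 0.695 and 0.346 (edgeR). DESeq2 gave adjusted p of 0.123 and 0.0159, so that Timp4 was the only member that DESeq2 called, with the lower level in old rMETRNL. Without old PBS 3, edgeR called it in both comparisons, at 1.74 (adjusted p = 0.0389) and -2.02 (adjusted p = 0.00572). Without old PBS 4 the values shrank to 0.59 and -0.87 and were not called.

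The sums of the brain list and of the muscle fiber list had the same order over the 3 old PBS libraries as Timp4. Mobp, Snap25, Gfap and Mbp of the first list and Acta1, Ckm and Tnnt3 of the second shared that order. Slc1a2 of the first and Myh1 and Myh4 of the second did not. The order was not particular to these lists. In old PBS 2, 3 and 4 the fibro-adipogenic genes summed to 1284, 1242 and 1677 CPM. The tendon genes described below summed to 88.3, 57.3 and 114 CPM. Genes that activate, bind or clear MMPs, also described below, summed to 1207, 1035 and 1306 CPM. The 5 brain genes (Mobp, Snap25, Gfap, Slc1a2 and Mbp) summed to 176, 71.7 and 224 CPM in old PBS 2, 3 and 4, with Mobp and Snap25 at 0 counts in all 6 libraries of the other groups. The 5 muscle fiber genes summed to 100743, 63371 and 106078 CPM in the same 3 libraries, and the 4 adipocyte genes to 31.5, 125 and 98.7 CPM. The share of Timp4 in the inhibitor sum was 2.92%, 1.40% and 6.18% in these libraries and 0.795% to 1.31% in the other 6. The part of any of these lists in the Timp4 difference was not tested.

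**Figure D3:**
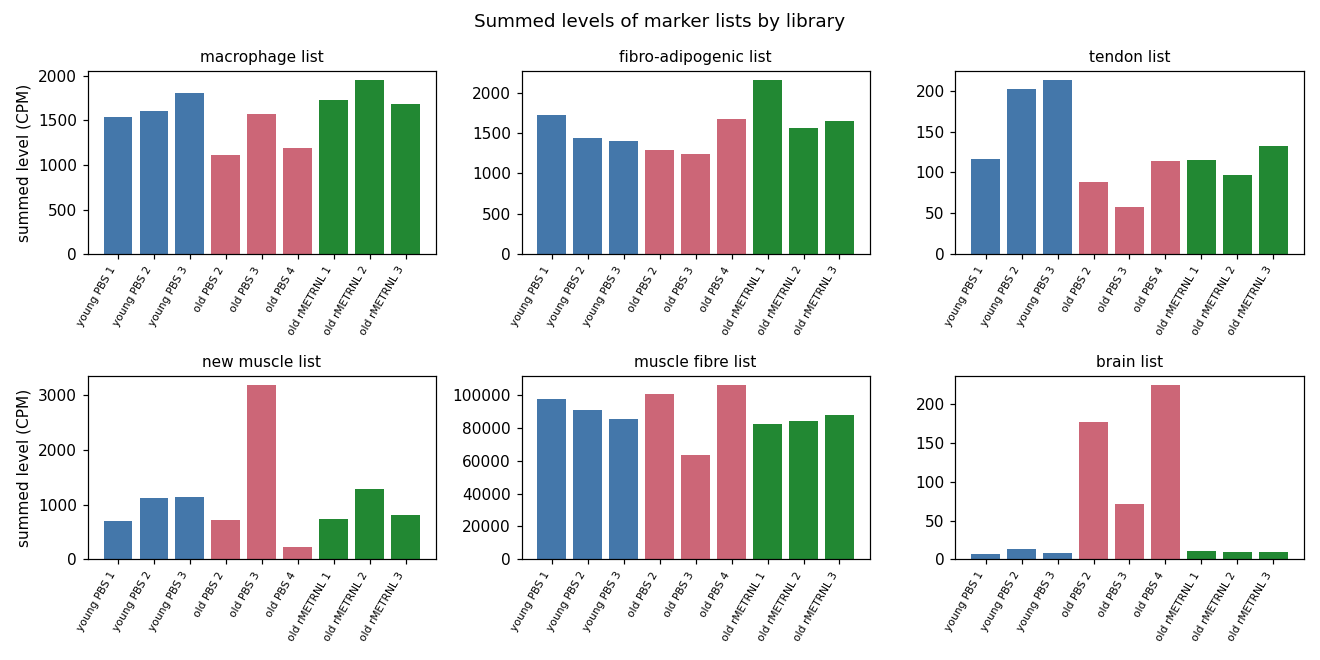
Bars give the summed CPM (from 0) of 6 marker gene lists in each of the 9 libraries. Old PBS 3 stands at 3185 CPM for new muscle and 63371 CPM for muscle fiber, the old PBS libraries stand at 71.7 to 224 CPM for brain, and macrophage sums lie between 1112 and 1957 CPM.

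Of the inhibitor genes, 3 lie inside a synapsin gene on the opposite strand, and how the counting treated strand is not given in the sources used here. Timp1 lies within Syn1 and shares 0 exon bases with it, Timp4 within Syn2 with 90 shared exon bases, and Timp3 within Syn3 with 1733. Syn3 had at most 19 counts in any library. Syn2 had 97 counts in old PBS 4, its lowest, where Timp4 had 650, its highest. Mmp12 shares 157 exon bases with Mmp1b, which had 0 counts in every library.

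Over all 10 members, old PBS against young PBS gave 4 higher and 6 lower, with a median log2 fold change of -0.39, against 0.014 for all genes tested. edgeR called 0 of the 10 at an adjusted p under 0.05, against 0.0643% of 15560 genes, and DESeq2 called 0 of the 10, against 1.42% of the genes it tested. At an unadjusted p under 0.05 there were 3 members (Mmp12 and Timp1 lower, Timp4 higher), against 5.91% of genes. The groups did not overlap in 3 members, Mmp2, Timp1 and Timp2, all lower in old PBS, against 10.6% of genes. Without old PBS 3, edgeR called 2 of the 10, Timp1 and Timp4, against 2.52% of genes, and without a filter on low counts it called 2, Mmp12 and Timp4, against 1.23% of genes.

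Old rMETRNL against old PBS gave 7 higher and 3 lower, with a median log2 fold change of 0.40, against -0.0056 for all genes tested. This comparison shares its old PBS libraries with the one before, so that opposite signs in the pair are not separate results. edgeR called 0 of the 10 members, against 0.108% of 15682 genes, and DESeq2 called 1, Timp4, against 1.78% of genes. At an unadjusted p under 0.05 there were 3 members (Mmp12 and Timp1 higher, Timp4 lower), against 8.07% of genes. The groups did not overlap in 3 members, Timp1 and Timp2 higher and Timp4 lower, against 12.6% of genes, and overlapped in all 6 MMP genes. Without old PBS 3, edgeR called 2 of the 10, Timp1 and Timp4, against 9.76% of genes, and without a filter on low counts it called 3, Mmp12, Timp1 and Timp4, against 2.55% of genes. A test of 1 gene by exact permutation of 3 against 3 libraries could not have given a p under 0.1.

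Old rMETRNL against young PBS gave 3 higher and 7 lower, with a median log2 fold change of -0.037, against 0.00089 for all genes tested. edgeR called 0 of the 10 members and DESeq2 called 0, against 0% of genes by either tool. With no filter on low counts edgeR called 2, Mmp3 and Mmp9, against 0.467% of genes. Mmp3 alone had an unadjusted p under 0.05 by edgeR, against 2.41% of genes, and Timp1 alone had groups that did not overlap, against 6.79% of genes. Mmp2, Mmp13, Mmp14, Timp2 and Timp3 had log2 fold changes between -0.053 and 0.048. Their standard errors ran from 0.11 for Timp3 to 0.49 for Mmp13.

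**Figure D4:**
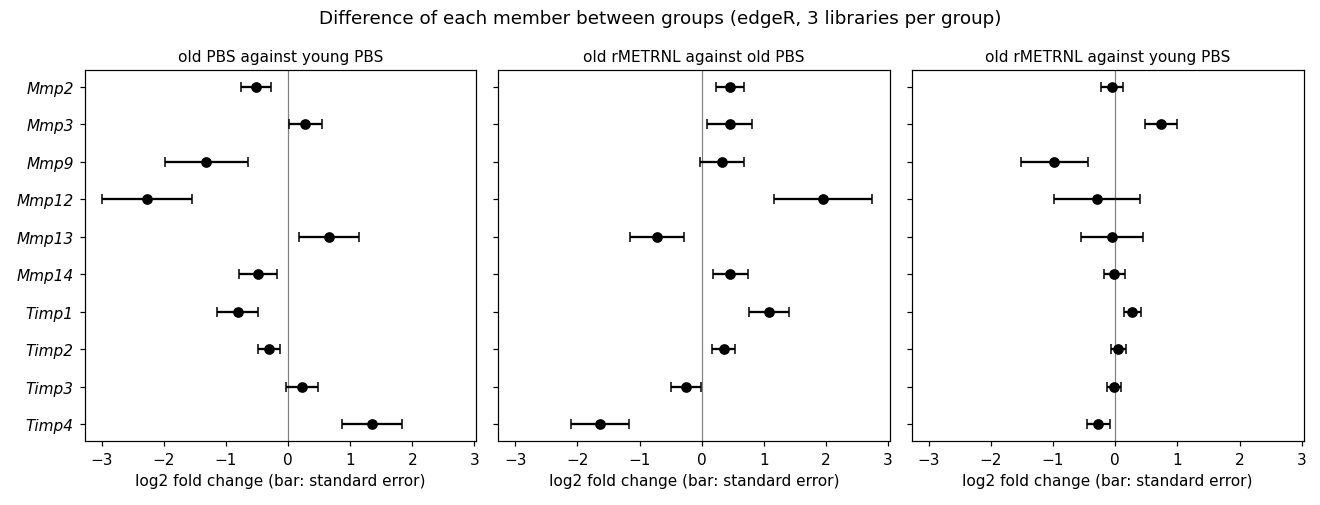
Points give the log2 fold change of each member and bars its standard error (edgeR, 3 libraries per group) in the 3 comparisons. Mmp12 and Timp4 lie farthest from 0 in the first 2 panels, at -2.26 and 1.36 and at 1.96 and -1.64, and no member passed the adjusted threshold in these fits.

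**Figure D5:**
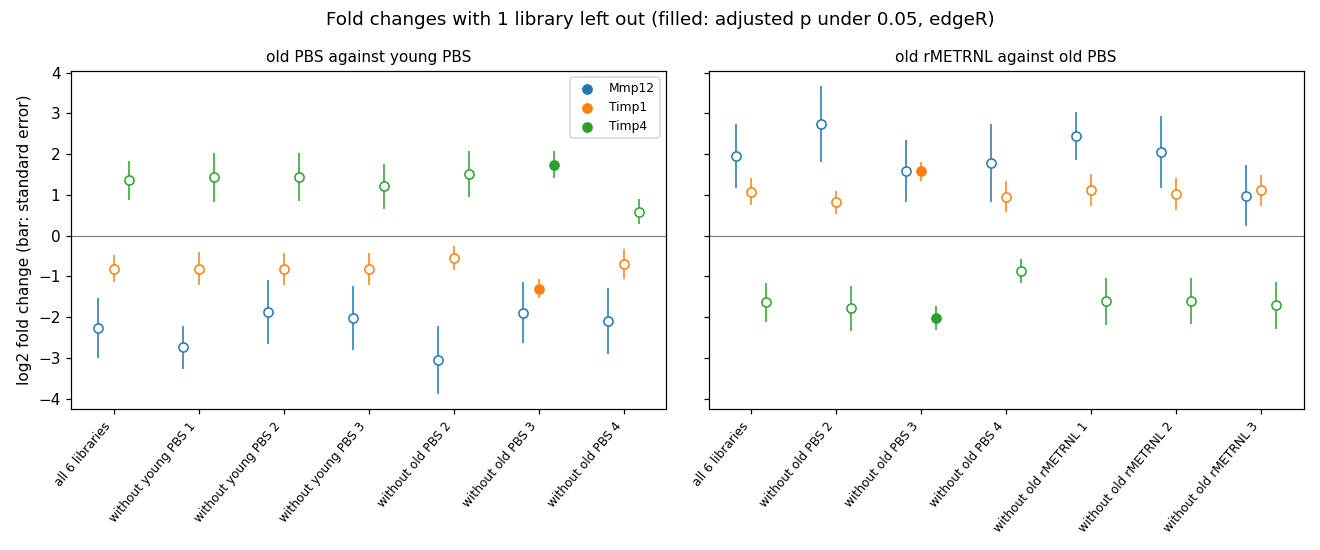
Points give the log2 fold change of Mmp12, Timp1 and Timp4 with all 6 libraries or with 1 left out, bars the standard error, and filled points an adjusted p under 0.05 (edgeR). Timp1 and Timp4 pass, of the fits shown, only without old PBS 3 (Timp1 at -1.30 and 1.58, Timp4 at 1.74 and -2.02), and Mmp12 in none.

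The genes whose pattern over the 9 libraries was most like that of the 4 most variable members were found among 16124 genes by the root-mean-square difference of centred log2 CPM, with no test. For Timp4 these were Gm28439 (0.186), Retreg1 (0.190) and Maob (0.206). For Mmp9 they were Ptx4 (0.341), Edil3 (0.365) and Tnmd (0.445), and for Mmp13 Gm13270 (0.346), Cnr1 (0.363) and Tfr2 (0.383). Gm13270 stood at 0.111 to 0.689 CPM and Tfr2 at 0.116 to 1.07 CPM, at their lowest under the floor of 3 counts. Mmp12 had no close match, with Dhrs9 (0.835), Cilp2 (0.876) and Tnc (0.943) nearest. Tnmd is also 1 of the 5 tendon genes, which summed to 117, 202 and 214 CPM in young PBS, 57.3 to 114 CPM in old PBS and 96.8 to 132 CPM in old rMETRNL. DESeq2 called Tnmd and Kera of that list, both lower in old PBS, in each comparison with old PBS, and edgeR called 0 of 5. At an unadjusted p under 0.05 (edgeR), 3 of 5 were lower in old PBS against young PBS. For old rMETRNL against old PBS, 2 were higher and 1, Scx, was lower. Scx ran against Tnmd and Kera, with log2 fold changes of 0.29 and -0.68, and was at -0.050 and -0.33 without old PBS 3. Leaving out old PBS 3, edgeR called 0 of 5 against young PBS and 2 of 5, Tnmd and Kera, for old rMETRNL against old PBS.

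As a list, 17 further MMP genes were read, of which 4 were at or under 3 counts in every library. Of the 10 tested between old PBS and young PBS, edgeR called 0, 3 were lower at an unadjusted p under 0.05 and DESeq2 called 1, and the median log2 fold change was -0.40. Mmp16, a membrane-anchored MMP like Mmp14, was that gene, with 56, 31 and 65 counts in young PBS, 5, 26 and 2 in old PBS and 45, 46 and 42 in old rMETRNL. Old PBS did not overlap with either group, and the log2 fold change was -2.34 ± 0.67 (SE) against young PBS, with an adjusted p of 0.440 by edgeR and 0.0335 by DESeq2. For old rMETRNL against old PBS it was 2.01 ± 0.62, with an adjusted p of 0.406 (edgeR) and 0.0884 (DESeq2). Mmp19, a secreted MMP, had log2 fold changes of -0.67 ± 0.25 and 0.89 ± 0.28 in the same pair of comparisons, with adjusted p of 0.736 and 0.418 (edgeR). Of the 9 list genes tested between old rMETRNL and old PBS, edgeR called 0, 3 were higher at an unadjusted p under 0.05 and DESeq2 called 0, and the median was 0.23. When old PBS 3 was left out, edgeR called 1 of 10, Mmp16 at -3.61 (adjusted p = 0.0312), and 3 of 9, among them Mmp16 at 3.29 (adjusted p = 0.0101) and Mmp19 at 1.17 (adjusted p = 0.0244), and Mmp19 was at -0.95 in the first (adjusted p = 0.0579).

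Of 16 genes that activate, bind or clear MMPs, 13 were tested and edgeR and DESeq2 called 0 in either comparison with old PBS. At an unadjusted p under 0.05, 1 was higher and 3 lower in old PBS against young PBS, and 3 were higher with rMETRNL (edgeR). The median log2 fold change was -0.14 and 0.14. Lcn2, the lipocalin that binds MMP9, was the gene that was higher in old PBS, with a log2 fold change of 2.16 ± 0.82 (SE) and an adjusted p of 0.737 (edgeR). Cd44, the hyaluronan receptor that can hold MMP9 at the cell surface, had log2 fold changes of -0.59 ± 0.23 and 0.58 ± 0.22, with adjusted p of 0.765 and 0.537 (edgeR). Plat, tissue plasminogen activator, had 0.55 ± 0.17 for old rMETRNL against old PBS, with an adjusted p of 0.395 (edgeR). On 14 genes tested without old PBS 3, edgeR called 0 against young PBS and 2 for old rMETRNL against old PBS, 1 in each direction. Cd44 was at -0.78 and 0.77 (adjusted p of 0.105 and 0.0433, edgeR). The other, A2m, was not among the 13 and was at 4.24 and -3.86 (adjusted p of 0.0672 and 0.0246, edgeR). Plat was at 0.51 and Lcn2 at 2.26. The median was then 0.082 and 0.093, so that the sign of the first turned.

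Adam and Adamts proteases are relatives of the MMPs, some of which Timp3 inhibits. Of 14 Adam and Adamts genes, 12 had a lower mean in old PBS against young PBS and 12 a higher mean with rMETRNL, with medians of -0.39 and 0.48. Over all genes tested, 7451 of 15560 were lower in the first comparison and 7739 of 15682 higher in the second. edgeR called 0 in both, 2 reached an unadjusted p under 0.05 in each, and DESeq2 called Adam8 in both. Adam8, a membrane protease of leukocytes, stood at 12.5, 18.9 and 20.6 CPM in young PBS, 7.62, 9.47 and 6.58 CPM in old PBS and 11.5, 19.5 and 16.9 CPM in old rMETRNL. Old PBS did not overlap with the others, and the log2 fold change was -1.12 ± 0.25 (SE) and 0.997 ± 0.25, with adjusted p of 0.205 and 0.236 by edgeR and of 0.0110 and 0.0341 by DESeq2. Adamts2, which trims the ends of procollagen, had log2 fold changes of -0.59 and 0.76, with adjusted p of 0.695 and 0.456 (edgeR). In the fits without old PBS 3, edgeR called 1 of 14, Adam8 at -1.28 (adjusted p = 0.0460), against 2.52% of all genes. For old rMETRNL against old PBS it called 6 of 14, all higher, against 9.76% of all genes. Among these were Adam8 (adjusted p = 0.0232, edgeR) and Adamts2 at 0.93 (adjusted p = 0.0427, edgeR). The medians were -0.70 and 0.86. The macrophage and fibro-adipogenic medians given above had the same signs. So had the medians of 5 endothelial genes (Pecam1, Cdh5, Kdr, Tek and Vwf), at -0.29 and 0.35, and at -0.50 and 0.55 without old PBS 3. The muscle fiber medians had the opposite signs, at 0.034 and -0.21, and at 0.30 and -0.48 without old PBS 3. The part of any of these cells was not tested.

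Of 5 cathepsin genes, which encode lysosomal proteases, 5 had a lower mean in old PBS against young PBS and 4 a higher mean with rMETRNL, with medians of -0.28 and 0.31. Over all genes tested these were 7451 of 15560 and 7739 of 15682. edgeR and DESeq2 called 0 in both comparisons, and 1 gene, Ctsk, reached an unadjusted p under 0.05 in each. Ctsk, a collagen-degrading cathepsin, had log2 fold changes of -0.53 ± 0.22 (SE) and 0.62 ± 0.21, and Ctsb of -0.28 ± 0.20 and 0.31 ± 0.20. Once old PBS 3 was left out, edgeR called 0 of 5 in both, with Ctsk at -0.65 and 0.74 (adjusted p of 0.155 and 0.0511) and Ctsb at -0.30 and 0.33.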

How the data were processed

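RNA was measured in 9 libraries of mouse tibialis anterior muscle, 3 per group. The authors deposited raw counts of reads per Ensembl gene, 1 column per library and not normalized. The methods name the NEBNext Ultra kit and paired-end sequencing. The submitters' processing notes name STAR, featureCounts and the build mm9. The Ensembl identifiers were matched to an annotation of GRCm38, which named 54495 of 54532 genes and gave the positions and exon lengths used here. Versions and the strand setting of the counting are not given in the sources used here. All count columns were used.

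Each pair of groups was fitted alone, on 6 libraries, in edgeR 4.0.16 under R 4.3.3 (filterByExpr, TMM, glmQLFit and glmQLFTest), with Benjamini-Hochberg adjustment over all genes tested and a threshold of 0.05. The F statistic and the log2 fold change gave each SE. DESeq2 1.42.0, the tool the methods name, was run as an alternative. CPM used TMM factors of all 9 libraries, and FPKM divided them by exon length. A count of 3, taken as the floor, corresponds to 0.133 to 0.185 CPM, and it covers counting error only. Patterns were compared on log2 CPM at a prior count of 2. Promoter sequences came from RefSeq (GRCm38.p6). Chi-square per degree of freedom between replicates was 10.9 to 169, so they differed by more than sampling noise. The scripts were tested on simulated data. The alternatives were other size factors, no filter, at least 10 counts in every library, DESeq2, 1 fit over the 9 libraries, a block for the replicate number and each library left out in turn.

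The text names all 10 members and the 2 genes of lowest p in each list and comparison with old PBS. It also names any list gene past the threshold in the edgeR fit on all 6 libraries, and the 3 genes most like each of the 4 most variable members. Not all list genes that passed only without old PBS 3 are named. The members and lists were chosen with earlier results of these data known. For marker lists of other cells this rule was not followed: they are given by sums and counts, and their genes named singly were chosen after their values were seen.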

Additional observations from a re-analysis of the deposited data

How the results depend on the processing

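The counts of called genes depended on the filter, the tool and old PBS 3. For old PBS against young PBS, 10 genes and 0 members were called. Without a filter on low counts these were 354 genes and 2 members (Mmp12 and Timp4), with at least 10 counts in every library 3 genes, by DESeq2 265 genes, and in a fit of all 9 libraries 63 genes. With 1 library left out, 2 to 401 genes and 0 to 2 members were called. For old rMETRNL against old PBS, 17 genes and 0 members were called. Without a filter these were 740 genes and 3 members (Mmp12, Timp1 and Timp4), with at least 10 counts in every library 1 gene, by DESeq2 354 genes and 1 member (Timp4), and in a fit of all 9 libraries 71 genes. With 1 library left out, 3 to 1560 genes and 0 to 2 members were called. For old rMETRNL against young PBS, 0 genes were called, 132 genes and 2 members (Mmp3 and Mmp9) without a filter, and 0 to 1 gene with 1 library left out. The highest values with 1 library left out, 401 and 1560 genes, were those without old PBS 3, and the cause was not tested.

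Some signs changed. With 1 library left out, Timp3 ran from -0.041 to 0.45 for old PBS against young PBS and from -0.48 to 0.016 for old rMETRNL against old PBS. For old rMETRNL against young PBS, the log2 fold change ran from -1.27 to 0.20 for Mmp12, -0.72 to 0.61 for Mmp13, -0.11 to 0.20 for Mmp14, -0.22 to 0.14 for Mmp2, -1.43 to 0.13 for Mmp9, -0.026 to 0.10 for Timp2 and -0.11 to 0.070 for Timp3. The other differences of members kept their sign under every alternative run.

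The replicate numbers were not taken to pair the libraries, since the labels tie them to no shared animal or batch and old PBS shares only 2 numbers with the other groups. The correlation of deviations between libraries of the same number was 0.114 and 0.412 for old PBS against young PBS, -0.0484 and -0.316 for old rMETRNL against old PBS, and -0.178 to 0.0231 for old rMETRNL against young PBS. A fit with the replicate number as a block called 11, 65 and 0 genes in these comparisons, and Mmp14 was at 0.0072 in the last. The lowest member, Mmp9, had 25 to 195 counts, and replicates differed by more than sampling noise.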
